A study of Mus musculus with 8 samples.

Results

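The genes of glycolysis and of the pentose phosphate pathway were compared between Treg of the bone marrow (BM-Treg) and Treg of the spleen (SP-Treg). The set holds 38 of the 38215 genes in the deposited tables. Its members were chosen by their role, with earlier results of these data known. They are 4 carriers of glucose or lactate, 9 genes of the hexose phosphate steps and 10 genes from aldolase to pyruvate kinase. The rest are 7 genes that set the fate of pyruvate, 7 genes of the pentose phosphate pathway, and Hif1a. All 38 were found by gene name and all 38 passed the filter on low counts.

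RNAseq libraries came from 4 BM-Treg and 4 SP-Treg samples of naïve B6.FoxP3-GFP mice aged 12 weeks, with C57Bl/6 as the genotype in the labels and no treatment. In these mice a green fluorescent protein reports FoxP3, and FoxP3+ cells were sorted by FACS, so that all libraries share the reporter allele and the sort. BM-Treg replicates 1 to 3 were labelled batch 1 and female, but batch 3 and male were the labels of BM-Treg replicate 4 and of every SP-Treg replicate. Tissue can therefore be told apart from batch and sex only through BM-Treg replicate 4. The study's methods state female mice unless indicated otherwise, which the male labels do not match. Those methods also give 4 biological replicates per condition, where a figure legend gives 3 per tissue. The labels were followed here.

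Glycolysis turns glucose into pyruvate in the cytoplasm and yields ATP, and the pentose phosphate pathway branches from it to make NADPH and the ribose of nucleotides. Several steps are catalysed by isozymes that differ between tissues and in their regulation. Treg are known to rely more on mitochondrial oxidation than effector T cells do, and glycolysis in T cells is raised by growth signals and by the hypoxia-inducible transcription factor whose regulated subunit is encoded by Hif1a.

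The library totals lay between 12427136 and 21921252 expected counts, and those of BM-Treg replicates 1 to 3 were the 3 highest. The 8 Treg and T cell markers, Foxp3, Il2ra, Ctla4, Ikzf2, Cd3e, Cd3d, Cd3g and Cd4, summed to 7416 to 8831 CPM (read counts scaled to a common library size by TMM) in BM-Treg and to 8198 to 8986 CPM in SP-Treg, and 0 of them were called different by edgeR's test, which gave 2 of the 8 an unadjusted p under 0.05. The 8 erythroid markers summed to 12.6 to 32.7 CPM in BM-Treg and to 2.30 CPM in SP-Treg replicate 1, against 188 to 454 CPM in SP-Treg replicates 2 to 4, and the 5 that were tested had a negative log2 fold change with an unadjusted p under 0.05 in edgeR's test. The 6 B and plasma cell markers summed to 11.1 to 13.7 CPM in BM-Treg and to 6.90 to 114 CPM in SP-Treg, with SP-Treg replicate 2 the highest. The 10 neutrophil and monocyte markers summed to 12.9 to 20.97 and 4.31 to 38.2 CPM, the 4 CD8 T and NK markers to 10.9 to 12.6 and 13.9 to 42.7 CPM, the 4 plasmacytoid dendritic cell markers to 29.5 to 39.8 and 8.76 to 42.0 CPM (nearly all Ccr9), and the 4 megakaryocyte markers to 0.741 to 2.59 and 0.647 to 1.76 CPM, each in BM-Treg and SP-Treg in that order. Of all these markers, Cd8a alone was called, lower in BM-Treg (log2 fold change -2.99, adjusted p = 0.0293 in edgeR's test), and it was not called with batch as a term (adjusted p = 0.27) or without any of the 4 BM-Treg libraries (adjusted p up to 0.102). Ncr1 and Klrb1c were at 0 in every BM-Treg library, and Prtn3 was at 0 in every SP-Treg library. The share of all genes with an unadjusted p under 0.05 is not given here, so the marker counts at that threshold have no background beside them. The part of non-Treg cells in the results was not tested. In bulk RNA of a sorted population, fewer cells that express a gene and less RNA per cell cannot be told apart.

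BM-Treg differed from SP-Treg in 10 of the 38 genes (edgeR's quasi-likelihood test, Benjamini-Hochberg adjusted p under 0.05 over all 13397 genes tested). Among all genes tested, 8.75% were called. Slc2a3 and Pdk1 were upregulated in BM-Treg (2 of 38, where 3.72% of all genes were upregulated). Slc16a1, Slc16a3, Hk2, Pfkp, Pgk1, Pgam1, Ldha and Rpe were downregulated (8 of 38, where 5.02% of all genes were downregulated). Thus a glucose carrier and a kinase that switches off pyruvate dehydrogenase were higher in BM-Treg, whereas a hexokinase, a phosphofructokinase subunit, 2 enzymes of lower glycolysis, the lactate dehydrogenase A subunit and both lactate carriers were lower. The median log2 fold change over the 38 genes was -0.10, beside -0.01 over all genes tested, and 24 of the 38 had a negative value. On log2(FPKM + 1) the median over the 38 genes was 0.02, beside 0.05 over all genes tested, and 18 of the 38 had a negative value, so that the majority turned with the measure.

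**Figure D1:**
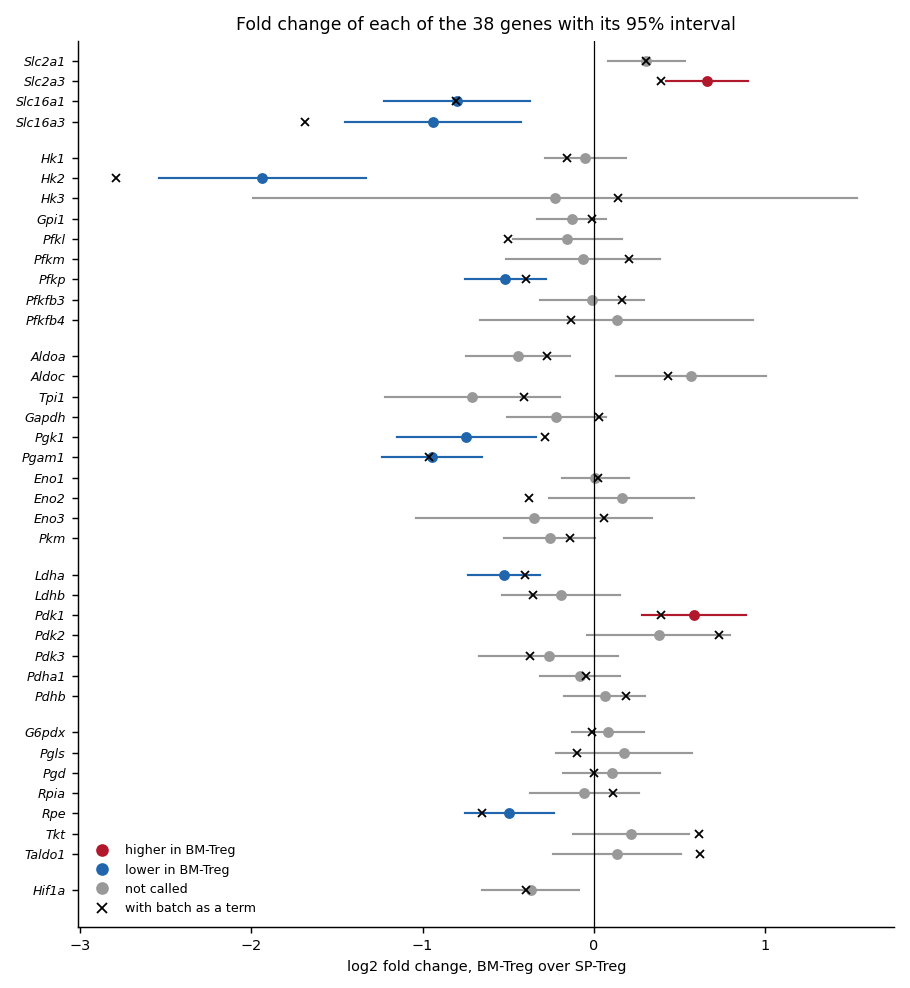
Log2 fold change of each gene, BM-Treg over SP-Treg (x axis), with its 95% interval from the fit without covariates; genes are grouped by role from top to bottom in the order used in the text. Colour marks the 2 genes called higher and the 8 called lower in BM-Treg, and black crosses give the fold change with batch as a term, which keeps its sign in all 10 called genes.

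Of the 10 genes, Hk2 alone reached an absolute log2 fold change of 1. The other 9 changed by 0.49 to 0.94 on the log2 scale. The CPM values of the 2 groups did not overlap in any of the 10, nor in 3 genes that missed the threshold (Slc2a1, Aldoa and Aldoc), so that 13 of 38 genes had groups that did not overlap, beside 16.2% of all genes tested. BM-Treg replicate 4, the library that shares batch and sex with the SP-Treg, lay beyond every SP-Treg library in the direction of the fold change in all 10, as it did in 97.2% of all genes called. With batch as a term in the model, which rests on that library, all 10 kept their sign. Of the 38 genes, 2 then had an adjusted p under 0.05 (Hk2 and Slc16a3), where 1.93% of all genes tested did. For the other 8 genes an effect of batch or sex cannot be told apart from that of tissue at this number of libraries. For Hk2 and Slc16a3, BM-Treg replicate 4 was the lowest of all libraries. With 1 such library, tissue cannot be told apart from the variation of that library for these genes either. On log2(FPKM + 1), limma-trend was used in place of the count test and called 5.71% of all genes tested. Of the 10 genes called on counts, 5 missed its threshold with the same sign and 5 kept it. The adjusted p was then 0.132 for Slc16a1, 0.167 for Slc16a3, 0.0519 for Pfkp, 0.0588 for Pgk1 and 0.175 for Rpe.

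**Figure D2:**
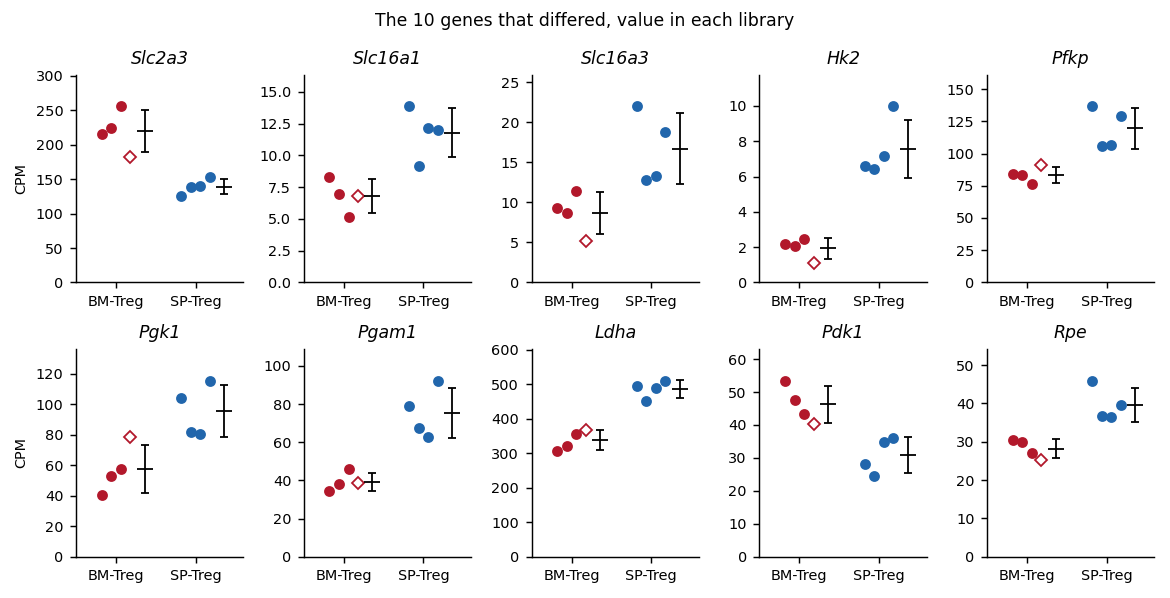
Expression in CPM (y axis, from 0) of the 10 genes called, with a point for each library; open diamonds mark BM-Treg replicate 4, and black bars give the mean and SD of the 4 libraries of a group. In each panel every BM-Treg point, the diamond included, lies on the same side of every SP-Treg point.

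Levels between genes were compared only as FPKM, which divides counts by transcript length. Gapdh, the glyceraldehyde phosphate dehydrogenase, had the highest level with 553 ± 104 FPKM in BM-Treg and 649 ± 55.5 FPKM in SP-Treg (SD, n = 4 each). Ldha followed at 232 ± 15.4 and 319 ± 30.7 FPKM, and Eno1, Hif1a and Pkm also averaged 100 FPKM or more over the 8 libraries. In contrast, 14 of the 38 genes averaged under 10 FPKM, among them Hk2, both lactate carriers and the kinases Pdk2 and Pdk3. Summed over the 38 genes, levels were 1617 to 2036 FPKM in BM-Treg and 1884 to 2370 FPKM in SP-Treg, which overlapped.

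**Figure D3:**
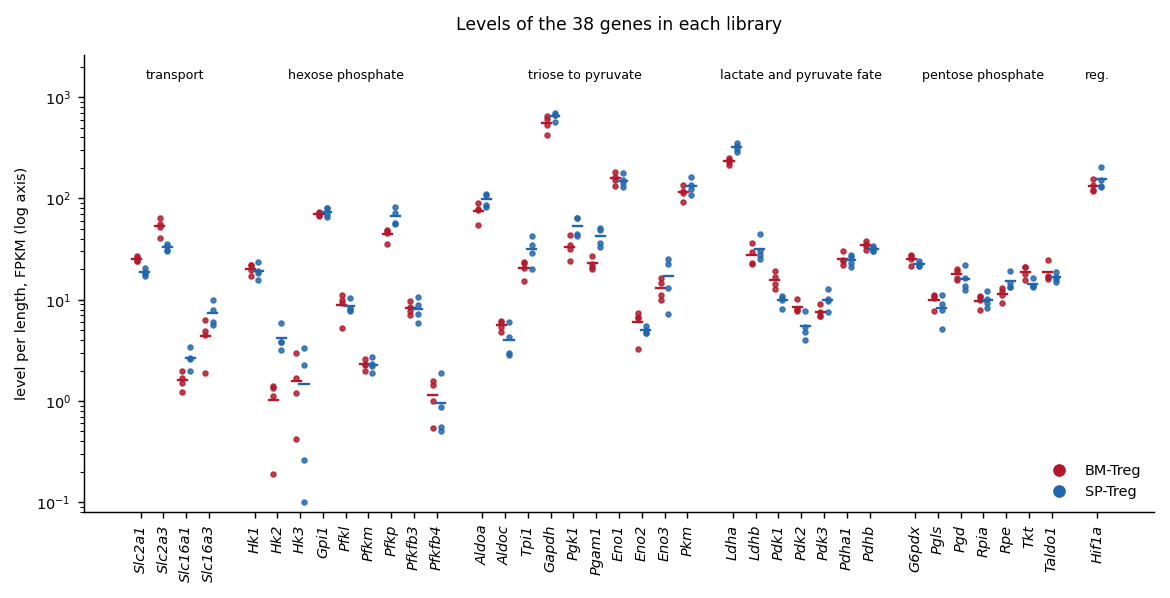
Level per length of the 38 genes in FPKM (y axis, log scale) in BM-Treg (red) and SP-Treg (blue); points are libraries, horizontal lines are means of 4 libraries, and a library listed at 0 (Hk3 in SP-Treg replicate 1) is drawn at 0.1. Gapdh and Ldha stand highest, and Pfkfb4, Hk3, Slc16a1, Pfkm and Hk2 lowest.

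Among the carriers of glucose, Slc2a3 encodes GLUT3, a high-affinity glucose carrier, and Slc2a1 encodes GLUT1, the carrier that most cells use for basal uptake. Slc2a3 (ENSMUSG00000003153, chr6:122727809-122801640, GRCm38) was expressed at 216, 225, 256 and 183 CPM in BM-Treg replicates 1 to 4 and at 126, 138, 141 and 153 CPM in SP-Treg replicates 1 to 4. All BM-Treg libraries were above all SP-Treg libraries, and the smallest gap was that of BM-Treg replicate 4. The level in BM-Treg was 1.58-fold that in SP-Treg (log2 fold change 0.66, SE 0.11, adjusted p = 0.00254 in edgeR's test). With batch as a term the log2 fold change was 0.39 (adjusted p = 0.201), and the call held without any single library. Slc2a1 stood at 56.5, 53.9, 57.6 and 55.9 CPM in BM-Treg, and at 42.2, 41.9, 50.1 and 46.9 CPM in SP-Treg. Its groups did not overlap, but the log2 fold change of 0.31 (95% interval 0.08 to 0.53) missed the threshold after adjustment in edgeR's test (adjusted p = 0.0855), and DESeq2's test called it (adjusted p = 0.0363). Per length, Slc2a3 made up 67.5% ± 3.66 of the summed FPKM of the 2 carriers in BM-Treg and 63.7% ± 2.24 in SP-Treg (SD, n = 4 each), with overlapping ranges. The sum of the 2 carriers was 65.2 to 90.4 FPKM in BM-Treg and 47.6 to 54.8 FPKM in SP-Treg, without overlap.

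The carriers of lactate were lower in BM-Treg. Slc16a3 encodes MCT4, which mainly exports lactate from glycolytic cells, and Slc16a1 encodes MCT1, which carries lactate and pyruvate in either direction. Slc16a3 (ENSMUSG00000025161, chr11:120948480-120960868) was at 9.30, 8.61, 11.4 and 5.18 CPM in BM-Treg, and at 21.98, 12.7, 13.3 and 18.7 CPM in SP-Treg. BM-Treg replicate 4 was the lowest of the 8 libraries, and SP-Treg replicate 1 was the highest. The log2 fold change was -0.94 (SE 0.24, adjusted p = 0.0255), a level 1.92-fold higher in SP-Treg, and it was -1.69 with batch as a term (adjusted p = 0.0363). Slc16a1 (ENSMUSG00000032902, chr3:104638668-104658462) was at 8.32, 6.99, 5.12 and 6.77 CPM in BM-Treg, and at 13.9, 9.16, 12.1 and 12.03 CPM in SP-Treg, with a log2 fold change of -0.80 (SE 0.20, adjusted p = 0.0225) that was also -0.80 with batch as a term (adjusted p = 0.23). Both are expressed at low levels, 1.603 and 4.41 FPKM on average for Slc16a1 and Slc16a3 in BM-Treg and 2.67 and 7.39 FPKM in SP-Treg. Leaving out BM-Treg replicate 1, BM-Treg replicate 2, SP-Treg replicate 1 or SP-Treg replicate 4 moved the adjusted p of Slc16a3 to 0.0632, 0.0737, 0.0841 and 0.0625, and leaving out BM-Treg replicate 2, BM-Treg replicate 3 or SP-Treg replicate 1 moved that of Slc16a1 to 0.0606, 0.069 and 0.0707 (edgeR's test).

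Among the genes of the hexose phosphate steps, Hk2 and Pfkp were downregulated in BM-Treg and 7 of 9 genes did not pass the test. Hk2 encodes the inducible hexokinase that commits glucose to metabolism in activated cells. Hk2 (ENSMUSG00000000628, chr6:82725025-82774454) was at 2.19, 2.04, 2.45 and 1.09 CPM in BM-Treg, and at 6.61, 6.45, 7.19 and 9.98 CPM in SP-Treg. BM-Treg replicate 4 had the lowest value and SP-Treg replicate 4 the highest, and the groups were far apart. Its level was 3.82-fold higher in SP-Treg (log2 fold change -1.93, SE 0.28, adjusted p = 0.00116 in edgeR's test), the largest change among the 38 genes. With batch as a term the log2 fold change was -2.79 (adjusted p = 0.0165), and the call held without any single library. These values rest on 548 expected counts over all 8 libraries. The value with batch as a term rests on BM-Treg replicate 4, where Hk2 was at 1.09 CPM. The share of Hk2 given below for that library rests on 0.19 FPKM, beside 1.11 to 1.40 FPKM in BM-Treg replicates 1 to 3.

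The other hexokinases did not pass the test. Hk1, the constitutive enzyme, was at 60.7 to 71.2 CPM in BM-Treg, against 58.5 to 75.4 in SP-Treg (log2 fold change -0.05, 95% interval -0.29 to 0.18). Hk3, known from myeloid cells, had 126 expected counts in all libraries and an interval of -1.99 to 1.54. Within the hexokinases the share of Hk2 in the summed FPKM was 5.08%, 6.29%, 4.73% and 1.003% in BM-Treg replicates 1 to 4 and 14.03%, 14.8%, 16.8% and 21.7% in SP-Treg replicates 1 to 4. Thus the share of Hk2 averaged 4.28% in BM-Treg and 16.8% in SP-Treg without overlap, while the summed FPKM of the 3 hexokinases overlapped at 18.9 to 26.6 in BM-Treg and 21.6 to 27.5 in SP-Treg, since Hk1 made up most of it in each library.

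**Figure D4:**
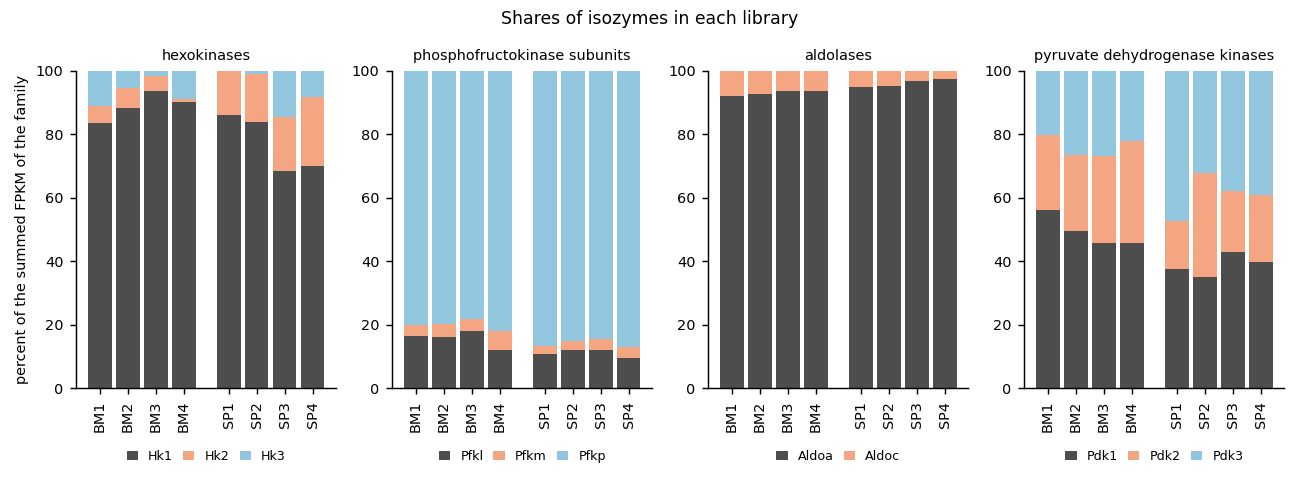
Share of each isozyme in the summed FPKM of its family (y axis, percent, from 0) in each library; BM1 to BM4 and SP1 to SP4 are the replicates of BM-Treg and SP-Treg. The shares of Hk2 and Pfkp are smaller, and those of Aldoc and Pdk1 larger, in each BM-Treg library than in each SP-Treg library.

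Phosphofructokinase, the main control point of glycolysis, is built from subunits of Pfkl, Pfkm and Pfkp. Pfkp (ENSMUSG00000021196, chr13:6579768-6648777), known as the platelet type, was at 83.9, 83.1, 76.2 and 91.0 CPM in BM-Treg, and at 137, 106, 106 and 129 CPM in SP-Treg. The groups did not overlap, and the log2 fold change was -0.52 (SE 0.11, adjusted p = 0.00976), or -0.40 with batch as a term (adjusted p = 0.257). The call held without any single library. Pfkp shares its locus with Pitrm1 on the opposite strand, which had a log2 fold change of -0.13 (adjusted p = 0.626 in edgeR's test), and the counting is not stated to use strand. Pfkp was the main subunit, with 80.1% ± 1.49 of the summed FPKM in BM-Treg and 85.9% ± 1.13 in SP-Treg (SD, n = 4 each), without overlap. Pfkl at 18.5 to 26.9 and 23.7 to 32.0 CPM overlapped between BM-Treg and SP-Treg (log2 fold change -0.16, 95% interval -0.47 to 0.16). Pfkm had 791 expected counts and overlaps Senp1, which had 16276, so that its values are uncertain.

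Pfkfb3 and Pfkfb4 encode enzymes that make and remove the sugar phosphate that activates phosphofructokinase. Pfkfb3 was at 23.5, 26.95, 22.9 and 28.7 CPM in BM-Treg, and at 30.7, 21.3, 27.3 and 23.6 CPM in SP-Treg. These libraries were fully mixed, and the 95% interval of the log2 fold change was -0.31 to 0.29. Pfkfb4 stayed at 1.09 to 1.57 CPM in all 8 libraries. Gpi1, the isomerase of hexose phosphates, was at 131 to 149.6 CPM in BM-Treg, against 143 to 166 in SP-Treg (log2 fold change -0.13, 95% interval -0.33 to 0.07).

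From aldolase to pyruvate kinase, Pgk1 and Pgam1 were downregulated in BM-Treg and the other 8 of 10 genes did not pass the test. Pgam1 encodes the phosphoglycerate mutase of most tissues, and Pgk1 encodes the phosphoglycerate kinase that makes the first ATP of the pathway. Pgam1 (ENSMUSG00000011752, chr19:41911871-41918664) was at 34.3, 37.9, 46.0 and 38.7 CPM in BM-Treg, and at 79.1, 67.55, 62.9 and 92.3 CPM in SP-Treg. The highest BM-Treg library, replicate 3, lay well below the lowest SP-Treg library, also replicate 3. The level was 1.92-fold higher in SP-Treg (log2 fold change -0.94, SE 0.14, adjusted p = 0.00108), the log2 fold change was -0.97 with batch as a term (adjusted p = 0.0554), and the call held without any single library. Between 45.0% and 58.5% of the reads of Pgam1 and its copies were assigned to copies, nearly all to Pgam1-ps2, a processed pseudogene identical to a Pgam1 transcript over its whole length, and with those reads added to Pgam1 the log2 fold change was -0.81 (adjusted p = 0.00206 in edgeR's test).

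Pgk1 (ENSMUSG00000062070, chrX:106187100-106203699) was at 40.5, 52.8, 57.4 and 78.3 CPM in BM-Treg, and at 104, 81.7, 80.8 and 115.6 CPM in SP-Treg. BM-Treg replicate 4 lay just below the lowest SP-Treg library, well above the other BM-Treg libraries. The log2 fold change was -0.74 (SE 0.19, adjusted p = 0.0288), and with batch as a term it was -0.29 (adjusted p = 0.54). The gene is on the X chromosome, and sex differed between BM-Treg replicates 1 to 3 and the other libraries. Its pseudogenes Gm5537 and Pgk1-rs7 took 18.02% to 24.9% of the reads, and with those added the log2 fold change was -0.73 (adjusted p = 0.0167). Without BM-Treg replicate 1, 2 or 3 the adjusted p of Pgk1 was 0.0562, 0.0895 and 0.0784, and without SP-Treg replicate 1 or 4 it was 0.0849 and 0.0704 (edgeR's test); with no filter on low counts it was 0.0538.

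Eno1, Gapdh and Pkm, the most abundant genes of this stretch, did not pass the test. Eno1, the main enolase, was at 171 to 200.1 CPM in BM-Treg, against 177 to 190.1 in SP-Treg (log2 fold change 0.01, 95% interval -0.19 to 0.20). Gapdh was at 388, 466, 548 and 594 CPM in BM-Treg, and at 514, 528, 644 and 639 CPM in SP-Treg, with an interval of -0.51 to 0.07. Pkm, the pyruvate kinase, was at 209.8, 255, 307 and 288.5 CPM in BM-Treg, and at 354, 306, 278 and 331 CPM in SP-Treg, with an interval of -0.53 to 0.01. BM-Treg replicate 1 was the lowest library for both Gapdh and Pkm. Copies took 16.5% to 21.2% of the reads of Eno1 and 6.74% to 9.84% of those of Gapdh.

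Aldoa, the main aldolase, was at 72.0 to 116 CPM in BM-Treg, against 122 to 156 in SP-Treg. These groups did not overlap, but the log2 fold change of -0.44 (95% interval -0.75 to -0.14) missed the threshold (adjusted p = 0.0679 in edgeR's test, 0.0426 in DESeq2's test). Tpi1, the triose phosphate isomerase, had a log2 fold change of -0.71 (95% interval -1.22 to -0.20, adjusted p = 0.0862), and SP-Treg replicate 3 at 22.4 CPM lay within the BM-Treg range of 16.6 to 28.6 CPM, below the other SP-Treg libraries at 35.9 to 48.9 CPM. Without SP-Treg replicate 3 the adjusted p of Tpi1 was 0.00754, and DESeq2's test on all libraries gave 0.0213. In the opposite direction, Aldoc, known as the aldolase of brain, was at 8.65 to 12.3 CPM in BM-Treg, against 4.85 to 7.90 in SP-Treg (log2 fold change 0.56, 95% interval 0.13 to 1.0004, adjusted p = 0.106). The share of Aldoc in the summed aldolase FPKM was 6.35% to 8.08% in BM-Treg and 2.68% to 5.06% in SP-Treg. Eno2 and Eno3, the enolases best known from neurons and muscle, were at 7.18 to 13.0 and 9.91 to 16.9 CPM in BM-Treg, and at 8.33 to 10.05 and 8.48 to 22.4 CPM in SP-Treg, and neither passed the test.

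Pkm makes M1 or M2 pyruvate kinase by a choice between adjacent exons of equal length, and the M2 form, whose activity is regulated, is the usual form of proliferating cells. The exons are shown because the deposited transcripts can be told apart by them, each 5′ to 3′ with the bases that differ between them in capitals. They lie at chr9:59675029-59675195 (M1) and chr9:59675568-59675734 (M2) on the + strand of GRCm38, are coding, span 167 bases each, and share 103 of these.
M1 exon: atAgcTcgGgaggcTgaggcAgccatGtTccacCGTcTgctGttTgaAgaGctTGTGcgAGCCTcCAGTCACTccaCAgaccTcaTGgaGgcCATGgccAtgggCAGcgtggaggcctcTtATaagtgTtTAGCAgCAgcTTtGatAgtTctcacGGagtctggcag
M2 exon: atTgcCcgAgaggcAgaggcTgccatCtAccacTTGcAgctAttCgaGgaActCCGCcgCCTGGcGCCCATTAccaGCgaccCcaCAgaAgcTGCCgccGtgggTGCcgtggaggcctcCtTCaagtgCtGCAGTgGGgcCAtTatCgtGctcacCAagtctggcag
Transcripts with the M2 exon made up 96.9%, 93.4%, 93.2% and 93.5% of the summed FPKM of M1 and M2 transcripts in BM-Treg and 94.0%, 92.8%, 93.5% and 92.3% in SP-Treg. Thus M2 was the main form in all 8 libraries, and BM-Treg replicate 1 had the largest share. The difference of 1.13 percentage points did not pass a two-sided exact permutation test (p = 0.343, where 0.0286 is the lowest value possible), and without BM-Treg replicate 1 it was 0.241 points (exact permutation p = 0.686, where 0.0571 is the lowest value possible, so that this test could not pass). The M1 transcript was at 6.80 ± 2.74 FPKM in BM-Treg and 9.03 ± 1.43 FPKM in SP-Treg (SD, n = 4 each), and shares of transcripts that overlap are estimates.

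At the end of glycolysis, Ldha was downregulated and Pdk1 upregulated in BM-Treg, while 5 of 7 genes did not pass the test. Ldha encodes the lactate dehydrogenase subunit that favours the reduction of pyruvate to lactate. Ldha (ENSMUSG00000063229, chr7:46841475-46855627) was at 307, 321, 357 and 368 CPM in BM-Treg, and at 494, 451, 490.3 and 511 CPM in SP-Treg. The groups were separated, with the smallest gap at BM-Treg replicate 4. The level was 1.44-fold higher in SP-Treg (log2 fold change -0.52, SE 0.10, adjusted p = 0.0046), the log2 fold change was -0.40 with batch as a term (adjusted p = 0.196), and the call held without any single library. Ldhb, the subunit that favours the reverse reaction, was at 18.01 to 27.9 CPM in BM-Treg, against 21.6 to 30.5 in SP-Treg (log2 fold change -0.19, 95% interval -0.54 to 0.15). The share of Ldha in the summed FPKM of both subunits was 87.3% to 91.4% in BM-Treg and 88.9% to 92.3% in SP-Treg, with overlap.

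Pdk1, Pdk2 and Pdk3 encode kinases that switch off pyruvate dehydrogenase, and so keep pyruvate from mitochondrial oxidation. Pdk1 (ENSMUSG00000006494, chr2:71873224-71903858) was at 53.5, 47.7, 43.3 and 40.4 CPM in BM-Treg, and at 28.1, 24.5, 34.8 and 36.1 CPM in SP-Treg. All BM-Treg libraries were above all SP-Treg libraries, by the least for BM-Treg replicate 4. The level in BM-Treg was 1.498-fold that in SP-Treg (log2 fold change 0.58, SE 0.14, adjusted p = 0.019), and the log2 fold change was 0.39 with batch as a term (adjusted p = 0.356). Without BM-Treg replicate 1, BM-Treg replicate 2 or SP-Treg replicate 2 the adjusted p of Pdk1 was 0.0504, 0.0584 and 0.0597 (edgeR's test). Pdk2 was at 12.5 to 17.7 CPM in BM-Treg, against 8.12 to 14.1 in SP-Treg (log2 fold change 0.38, 95% interval -0.04 to 0.79). Pdk3 was at 9.94 to 11.4 and 10.3 to 18.1 CPM (log2 fold change -0.26, 95% interval -0.67 to 0.14). The share of Pdk1 in the summed FPKM of the 3 kinases was 45.6% to 56.0% in BM-Treg and 34.9% to 42.8% in SP-Treg, and that of Pdk3 was 20.2% to 27.01% and 32.1% to 47.4%, both without overlap. Pdha1 and Pdhb, the subunits of the dehydrogenase that these kinases act on, had 95% intervals of -0.31 to 0.15 and -0.18 to 0.30.

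Promoters of the downregulated genes were searched for ACGTG, the core of the element that hypoxia-inducible factors bind, on both strands, in the 250 bases before each start in the RefSeq table of GRCm38.p6. The core is also part of the E-box CACGTG, to which MYC and related factors bind. RefSeq windows were matched for 37 of the 38 genes, and Slc2a3 was not among them. The core was found for 6 of the 8 downregulated genes, for 10 of the 28 genes not called, and in neither window of Pdk1. Of all tested genes with a window 25.5% held it, and 16.6% of all 32851 RefSeq windows did. The E-box was found for 6 of the 37 genes, beside 9.97% of tested genes. Windows of the 6 downregulated genes that hold the core are shown because these genes were called in the same direction. Whether they share a regulator was not tested. Each window is given 5′ to 3′ on the strand of the gene, with the core on either strand in capitals. It ends at the base before the start (in Slc16a3 14 bases earlier, where an annotated exon begins).
Hk2 (chr6:82774455-82774704, - strand): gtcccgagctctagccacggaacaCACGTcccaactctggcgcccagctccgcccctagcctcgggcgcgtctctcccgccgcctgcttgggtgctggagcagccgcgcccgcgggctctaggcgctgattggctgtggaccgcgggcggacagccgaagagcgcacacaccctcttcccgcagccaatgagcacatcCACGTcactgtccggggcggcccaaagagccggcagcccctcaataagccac
Ldha (chr7:46845554-46845803, + strand): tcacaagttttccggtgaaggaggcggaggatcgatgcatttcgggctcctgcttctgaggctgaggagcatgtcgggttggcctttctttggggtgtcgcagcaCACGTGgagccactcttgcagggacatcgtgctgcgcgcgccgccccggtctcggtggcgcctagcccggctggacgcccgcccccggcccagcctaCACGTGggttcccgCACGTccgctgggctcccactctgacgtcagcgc
Pgk1 (chrX:106186850-106187099, + strand): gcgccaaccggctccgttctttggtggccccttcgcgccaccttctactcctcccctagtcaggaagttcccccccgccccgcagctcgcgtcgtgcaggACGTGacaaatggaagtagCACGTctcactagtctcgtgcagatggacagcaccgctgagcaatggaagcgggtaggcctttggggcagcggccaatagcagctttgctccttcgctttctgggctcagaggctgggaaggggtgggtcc
Pgam1 (chr19:41911621-41911870, + strand): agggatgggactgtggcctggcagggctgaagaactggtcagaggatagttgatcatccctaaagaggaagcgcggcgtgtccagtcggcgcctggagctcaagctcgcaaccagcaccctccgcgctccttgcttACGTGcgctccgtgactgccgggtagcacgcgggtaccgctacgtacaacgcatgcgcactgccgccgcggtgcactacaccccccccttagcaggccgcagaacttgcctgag
Slc16a1 (chr3:104638414-104638663, + strand): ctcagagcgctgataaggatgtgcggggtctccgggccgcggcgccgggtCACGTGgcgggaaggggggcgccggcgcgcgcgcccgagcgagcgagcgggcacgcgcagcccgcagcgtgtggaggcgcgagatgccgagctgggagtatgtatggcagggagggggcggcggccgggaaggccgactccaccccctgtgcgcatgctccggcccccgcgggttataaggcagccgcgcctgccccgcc
Slc16a3 (chr11:120948817-120949052, + strand): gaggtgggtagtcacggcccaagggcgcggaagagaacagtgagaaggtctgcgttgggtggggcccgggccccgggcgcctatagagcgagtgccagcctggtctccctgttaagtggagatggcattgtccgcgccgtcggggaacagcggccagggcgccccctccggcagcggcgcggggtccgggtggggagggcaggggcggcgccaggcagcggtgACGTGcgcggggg
The Ldha window held 3 stretches with the core, 2 of which are E-boxes, and the Slc16a1 window held 1 E-box. Hk2 and Pgk1 held 2 stretches each, and Pgam1 and Slc16a3 held 1 each. Pfkp and Rpe held none. A match is a description of the letters, and binding was not measured.

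In the pentose phosphate pathway, Rpe was downregulated in BM-Treg and 6 of 7 genes did not pass the test. Rpe encodes the epimerase that interconverts pentose phosphates in the non-oxidative branch. Rpe (ENSMUSG00000026005, chr1:66700831-66719805) was at 30.4, 29.97, 26.96 and 25.2 CPM in BM-Treg, and at 46.0, 36.6, 36.4 and 39.6 CPM in SP-Treg, without overlap. The log2 fold change was -0.49 (SE 0.12, adjusted p = 0.0198), and with batch as a term it was -0.65 (adjusted p = 0.0967). Rpe overlaps Kansl1l on the opposite strand, which held more expected counts (5859 against 4196) and was itself lower in BM-Treg (log2 fold change -0.46, adjusted p = 0.0484 in edgeR's test). Since the counting is not stated to use strand, reads of Rpe and Kansl1l cannot be told apart where they overlap. Without BM-Treg replicate 3 or SP-Treg replicate 1 the adjusted p of Rpe was 0.0619 and 0.0668 (edgeR's test).

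The oxidative branch that makes NADPH starts with G6pdx, the glucose phosphate dehydrogenase. G6pdx was at 57.9, 65.0, 60.5 and 56.3 CPM in BM-Treg, and at 58.3, 57.5, 54.6 and 56.4 CPM in SP-Treg. The libraries were mixed, and the 95% interval of the log2 fold change was -0.13 to 0.29. G6pdx is on the X chromosome and overlaps Ikbkg, which had a log2 fold change of 0.12 (adjusted p = 0.549 in edgeR's test). Pgls and Pgd, the lactonase and the second dehydrogenase of this branch, were at 8.69 to 11.3 and 36.2 to 42.1 CPM in BM-Treg, and at 7.44 to 11.5 and 29.8 to 44.3 CPM in SP-Treg. Rpia, the isomerase that yields ribose phosphate, was at 14.6 to 20.7 and 16.7 to 21.05 CPM. None of these 4 genes was called, and edgeR's test gave 0 of them an unadjusted p under 0.05. Pgls overlaps Fam129c on the same strand, which had 1028 expected counts beside 1286.5 for Pgls, so that the values of Pgls are uncertain. Fam129c had a log2 fold change of -0.41 (adjusted p = 0.246 in edgeR's test).

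Tkt and Taldo1 encode transketolase and transaldolase, which link the pentose phosphates back to glycolysis. Tkt was at 35.4, 36.2, 39.1 and 54.0 CPM in BM-Treg, and at 34.9, 33.6, 28.8 and 43.9 CPM in SP-Treg. BM-Treg replicate 4 was the highest library, and the others of BM-Treg lay within the SP-Treg range. The log2 fold change of Tkt was 0.22 (95% interval -0.12 to 0.56, adjusted p = 0.448), or 0.61 with batch as a term (adjusted p = 0.127). BM-Treg replicate 4 was also the highest library for Taldo1, with 16.9, 18.4, 17.8 and 28.4 CPM in BM-Treg and 16.7 to 21.7 CPM in SP-Treg. Its log2 fold change was 0.13, or 0.62 with batch as a term (adjusted p = 0.127 in edgeR's test). Both values with batch as a term rest on BM-Treg replicate 4, and whether it stands for male BM-Treg or for itself cannot be told apart.

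Hif1a was at 314, 358, 421 and 354 CPM in BM-Treg, and at 583, 422, 388 and 475 CPM in SP-Treg. SP-Treg replicate 1 was the highest, and SP-Treg replicate 3 lay within the BM-Treg range. The log2 fold change was -0.37 (95% interval -0.65 to -0.09) and did not pass after adjustment (adjusted p = 0.102 in edgeR's test). Hypoxia-inducible factors are controlled mostly by protein stability, which RNA does not show. Of 25 further genes of the HIF pathway or known to be induced by hypoxia outside glycolysis, 20 were tested. Of these, 1 was upregulated and 1 downregulated (beside 3.72% and 5.02% of all genes), with a median log2 fold change of 0.01. Hif3a, a family member that can act as an inhibitor, averaged 10.6 ± 1.53 CPM in BM-Treg and 5.41 ± 0.411 in SP-Treg (CPM, SD, n = 4 each; log2 fold change 0.97, adjusted p = 0.00516). Fam162a, a mitochondrial protein induced by hypoxia, was at 5.01 ± 1.55 and 13.8 ± 3.56 CPM (log2 fold change -1.46, adjusted p = 0.00271). Both had groups that did not overlap, and neither kept an adjusted p under 0.05 with batch as a term (0.178 and 0.135 in edgeR's test).

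Another 47 genes of glycolysis, pyruvate metabolism and the pentose phosphate pathway that are not among the 38 were examined, of which 31 were tested. Of these, 2 were upregulated and 0 downregulated in BM-Treg (beside 3.72% and 5.02% of all genes), and the median log2 fold change was 0.09. EdgeR's test gave 5 with a positive and 3 with a negative fold change an unadjusted p under 0.05, a threshold for which the share of all genes is not given here. The 2 upregulated genes belong to the pentose phosphate pathway. Tktl1, a transketolase-like gene on the X chromosome, was at 5.58, 6.35, 4.33 and 5.18 CPM in BM-Treg, and at 1.36, 1.27, 2.01 and 1.39 CPM in SP-Treg (log2 fold change 1.83, SE 0.28, adjusted p = 0.00161). H6pd, the hexose phosphate dehydrogenase of the endoplasmic reticulum, was at 60.3, 54.9, 53.0 and 59.6 CPM in BM-Treg, and at 30.1, 37.6, 34.5 and 32.2 CPM in SP-Treg (log2 fold change 0.76, SE 0.11, adjusted p = 0.00116). Neither gene had overlapping groups, and both kept an adjusted p under 0.05 with batch as a term (log2 fold changes 1.78 and 0.83, adjusted p = 0.0423 and 0.0274 in edgeR's test). Those values rest on BM-Treg replicate 4, so that tissue cannot be told apart from the variation of that library for Tktl1 and H6pd either.

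Regulators that sense glucose or energy were tested for 11 of 13 listed genes, with 1 upregulated and 1 downregulated (beside 3.72% and 5.02% of all genes). Flcn, folliculin, which acts in nutrient signalling at the lysosome, averaged 40.9 ± 6.15 CPM in BM-Treg and 28.2 ± 4.97 in SP-Treg (CPM, SD, n = 4 each; log2 fold change 0.53, adjusted p = 0.038), and its adjusted p rose above 0.05, to as much as 0.102, without any of BM-Treg replicates 2 to 4 or SP-Treg replicates 2 to 4. Slc7a5, a subunit of the large neutral amino acid carrier, was at 10.7 ± 1.36 and 19.0 ± 4.70 CPM (log2 fold change -0.82, adjusted p = 0.0124). Of 16 genes of NADPH and glutathione metabolism, 15 were tested and 1 was called, beside 8.75% of all genes. It was Mthfd2, a mitochondrial folate enzyme, whose level was 14.8 ± 1.21 CPM (BM-Treg) and 25.3 ± 4.10 CPM (SP-Treg) (log2 fold change -0.78, adjusted p = 0.00456 in edgeR's test). None of Flcn, Slc7a5 and Mthfd2 kept an adjusted p under 0.05 with batch as a term (0.0729, 0.0884 and 0.185 in edgeR's test).

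Proliferation genes were examined beside these results, since glycolysis rises in dividing T cells. Of 8 genes, Mcm2 and Mcm5, which encode parts of the replicative helicase, were downregulated in BM-Treg (log2 fold changes -0.62 and -0.94, adjusted p = 0.00283 and 0.00463 in edgeR's test), and 6 were not called. Neither kept an adjusted p under 0.05 with batch as a term (log2 fold changes -0.54 and -0.60, adjusted p = 0.118 and 0.259 in edgeR's test). All 8 proliferation genes had a negative log2 fold change, and edgeR's test gave 4 of them an unadjusted p under 0.05. Of all genes tested, 5.02% were called lower in BM-Treg at an adjusted p under 0.05, and the share at the unadjusted threshold is not given here. Mki67 overlapped, at 585 to 1405 CPM in BM-Treg, against 910.2 to 1157 in SP-Treg, and the 8 genes summed to 944 to 1957 CPM and 1400 to 1736 CPM. The part of cell division in the lower glycolytic genes was not tested.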

How the data were processed

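RNA of sorted FoxP3+ cells (15 ng per library) was amplified by SPIA and sequenced as single-end reads of 80 nt. The deposited values are expected counts (estimated reads, not scaled between libraries) and FPKM per gene and per transcript, which the authors computed; the submitters' processing notes name cutadapt 1.9, STAR 2.5.2a, RSEM 1.2.30 and GRCm38, and the annotation release is not given in the sources used here. The kits are not stated to keep strand. Reads carry no molecular identifiers, so counts of reads are not counts of molecules.

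Expected counts were rounded and compared with edgeR 4.0.16 in R 4.3.3 (TMM, filterByExpr on the groups, robust quasi-likelihood test on tissue alone, Benjamini-Hochberg adjustment over the 13397 genes that passed the filter). The study's methods do not say which test was used for the RNAseq. CPM are counts scaled to a common library size after TMM. Adjusted p-values come from this fit unless DESeq2 1.42.0 or limma 3.58.1 is named. The script was tested on simulated counts. Intervals are 95% intervals of the log2 fold change in the fit on tissue alone. They rest on the variation between libraries of separate biological replicates and take no account of batch or sex. Gene coordinates are GRCm38 as given with the deposited values. All 38 identifiers were found in GENCODE M21, at overlapping positions. The Pkm exons are from GENCODE M21. Retrocopies are annotated pseudogenes or single-exon genes outside the locus, of at least 90% identity over at least 50% of their length. Matches for Ldha, Pdhb and Rpia include entries annotated as miRNA, and those for Pdhb and Rpia other small RNA, which need not be copies. Promoters and their starts are from RefSeq.

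Groups came from the labels. The members and the gene lists were chosen with earlier results of these data known. Values in every library were given for genes called and for Slc2a1, Hk2, Pfkfb3, Ldha, G6pdx, Tkt, Pkm and Hif1a; of the other lists, called genes were named. Alternatives were other scalings and tests, FPKM, other filters, batch or replicate number as a term, a threshold of 0.01, retrocopy reads added, and each library left out.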

Additional observations from a re-analysis of the deposited data

Results flagged for a closer look

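In groups of 4 libraries, a value was set aside for a closer look where the gap between the highest or lowest library and its nearest neighbour as a share of the range of the group exceeded Dixon's 95% critical value. Of 138 groups of CPM values or isozyme shares, 8 met this, and chance flags about 1 in 20 groups. BM-Treg replicate 4 stood apart in 4 of them. Its Pdk2 level was 17.7 CPM against 12.5 to 12.8 CPM in the other BM-Treg libraries (gap 0.952 of the range), and its Taldo1 level was 28.4 CPM against 16.9 to 18.4 CPM (0.868). Its Pgls level was lower, at 8.69 CPM against 10.9 to 11.3 CPM (0.854), as was its share of Eno2 among the enolases, at 2.15% against 3.64% to 3.83% (0.884). This library differs from the other BM-Treg libraries in batch, sex and depth, which cannot be told apart. BM-Treg replicate 1 had a Pkm M2 share of 96.9% against 93.2% to 93.5% (0.921). SP-Treg replicate 1 had a Pfkl level of 32.0 CPM against 23.7 to 24.7 CPM (0.890). In SP-Treg replicate 3 the share of Slc16a1 in the lactate carriers was 31.2% against 24.8% to 25.6%, and that of Slc16a3 was accordingly 68.8% against 74.4% to 75.2% (0.863 for both).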

How the results depend on the processing

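With batch as a term 258 genes were called in place of 1172, and 0 of the 38 genes were higher and 2 lower in BM-Treg. Without the adjusted threshold, 4 were higher and 8 lower at an unadjusted p under 0.05 (edgeR). The share of all genes at that unadjusted threshold is not given here, so these 2 counts have no background beside them. On log2(FPKM + 1) and log2(FPKM + 0.1), limma-trend called 765 and 728 genes, 63.0% and 62.4% of them higher in BM-Treg against 42.6% in edgeR's test on counts, and 3 of the 38 were lower under each, beside 2.11% and 2.05% of all genes; the median of all genes moved from -0.01 to 0.05 and 0.06. At a threshold of 0.01, 1 was higher and 4 lower, beside 1.22% and 1.97% of all genes. Leaving out each library gave 690 (BM-Treg replicate 2) to 1048 genes (SP-Treg replicate 3), 1 (BM-Treg replicate 1 or 2, or SP-Treg replicate 2) to 2 of the 38 higher and 4 (SP-Treg replicate 1) to 9 lower (SP-Treg replicate 3), with 5 lower without BM-Treg replicate 2 or 3. DESeq2's test called 13 of the 38 and 1703 (12.7%) of all genes.

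Replicate numbers did not pair the libraries: the deviations of same-numbered libraries correlated at -0.11, 0.06, -0.18 and 0.04, and with the replicate block 948 genes were called and Slc16a3 was lost (adjusted p = 0.0514).

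No called gene changed sign under any alternative run. Genes not called did. On log2(FPKM + 1) the log2 fold changes were 0.084 for Hk1, 0.22 for Hk3, 0.018 for Pfkl, 0.015 for Pfkm, 0.028 for Pfkfb3 and 0.043 for Pdha1, and on log2(FPKM + 0.1) they were 0.088, 0.91, 0.014, 0.022, 0.033 and 0.044. With batch as a term they were 0.14 for Hk3, 0.20 for Pfkm, 0.16 for Pfkfb3, -0.13 for Pfkfb4, 0.031 for Gapdh, -0.38 for Eno2, 0.058 for Eno3, -0.011 for G6pdx, -0.10 for Pgls and 0.11 for Rpia. Hk3 was at 0.48 with limma-voom, Pfkfb3 at 0.0059 with no filter and 0.016 with at least 10 counts in every library, and Eno1 at -0.022 with retrocopies added. With each library left out, values ran from -0.12 to 0.021 for Hk1, -0.64 to 0.23 for Hk3, -0.16 to 0.049 for Pfkm, -0.094 to 0.10 for Pfkfb3, -0.036 to 0.069 for Eno1, -0.12 to 0.069 for Rpia and -0.062 to 0.24 for Taldo1. The M2 share difference ran from 0.241 to 1.47 points. The cause of these shifts was not tested. Depth limits Hk3, Pfkfb4 and Hk2, with 126, 174 and 548 counts in all.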
